A study of Sus scrofa with 12 samples.

Results

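Binding sites of the transcription factor C/EBP-β, the product of CEBPB, were examined at the keratin genes of pig endometrium, the lining of the uterus. A gene was taken as a keratin gene when the Sscrofa11.1 annotation lists it as protein-coding, on an assembled chromosome, with a symbol of KRT followed by a digit. This gave 35 of the 19550 protein-coding genes on the chromosomes. Chromatin from endometrial tissue of pregnant pigs was precipitated with a C/EBP-β antibody and sequenced (ChIP-seq), with 3 libraries of day 15 and 3 libraries of day 12 of pregnancy. Both groups are intact tissue with no treatment named in the labels, so binding in epithelial, stromal and other cells is mixed, and fewer cells of a type and weaker binding per cell cannot be told apart. The labels name no strain, age or animal, and leave unsaid if replicates are different animals. The spread that the p-values measure is that between these libraries and may be technical. The 6 input samples were not analysed here.

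Keratins are the intermediate filament proteins of epithelial cells. Each filament pairs a type I with a type II chain, and the genes of each type lie side by side in a cluster of their own. KRT18 encodes a type I chain but lies at the edge of the type II cluster, beside KRT8, the gene of its usual partner. KRT7, KRT8, KRT18 and KRT19 encode the keratins of simple, single-layered epithelia such as the lining and glands of the uterus. Most other members are known from stratified epithelia such as skin, or, in human and mouse, from hair.

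All 35 members lay in the 2 clusters, and 0 lay singly. The type II cluster spans 739 kb of chromosome 5 (17482454 to 18221432, build susScr11, the UCSC name of Sscrofa11.1) from KRT80 to KRT18 and holds 15 members. The type I cluster spans 663 kb of chromosome 12 (21115453 to 21778893) from KRT19 to KRT222 and holds 20 members. KRT7 lies in the type II cluster (17553192 to 17570582), but the gene table lists it as a long non-coding RNA, so it is not among the 35 and is described apart from them. A further 41 protein-coding genes inside the clusters carry LOC identifiers, and the table gives them no name. Some of these may be keratin genes, so counts of members cover the genes with a KRT symbol alone.

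Each file lists peak summits, the base of strongest signal in each peak, with a score from the authors, the −log10 of either a p-value or a q-value. Scores grow with depth, which is unknown for these libraries, so they were used as a percentile within a list and, in alternatives, as a minimum score. Replicates 1, 2 and 3 of day 15 had 70152, 16529 and 11960 summits on the chromosomes, and those of day 12 had 6557, 33294 and 57728. The 3 shorter lists (day 15 replicates 2 and 3, day 12 replicate 1) are those whose peak names carry a directory path. They are called the path set here, and the 3 longer lists the no-path set. In the peak names, 1 sample code is common to day 15 replicates 2 and 3, and replicate 3 lacks the name of the protein. Whether these lists come from 1 sample is unknown, and replicate 3 is a C/EBP-β library by its label alone. The SDs and tests below count them as separate libraries of day 15, as does the rule by which a gene is called bound. The lowest score was 2.0 in day 12 replicate 1 and 1.31 to 1.37 in the other libraries.

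Most keratin genes had no C/EBP-β summit nearby in any library, and KRT18 was the one member with a summit in every library. Of the 35 members, 20 (57.1%) had no summit within 5 kb of either end in any library, against 29.5% of all protein-coding genes. KRT18 alone had one in all 6 libraries, which is 2.86% of the members, against 13.1% of all genes. With lists cut to the 6557 highest-scoring summits each, it was still the 1 member of 35, against 3.53% of all genes. A gene is called bound on a day when at least 2 of its 3 libraries had such a summit. On day 15, 1 of 35 members was bound (2.86%), against 46.3% of all genes. On day 12, 6 of 35 were bound (17.1%), against 38.1% of all genes. KRT18 was the 1 member bound on both days (2.86%), against 30.5% of all genes. The median number of libraries with a summit was 0 for keratin genes and 3 for all genes. Keratin genes are shorter, with a median length of 7.35 kb against 20.7 kb, and 77.1% of them had another protein-coding gene within 10 kb, against 67.6% of all genes. Whether these differences bear on the counts was not tested.

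**Figure D1:**
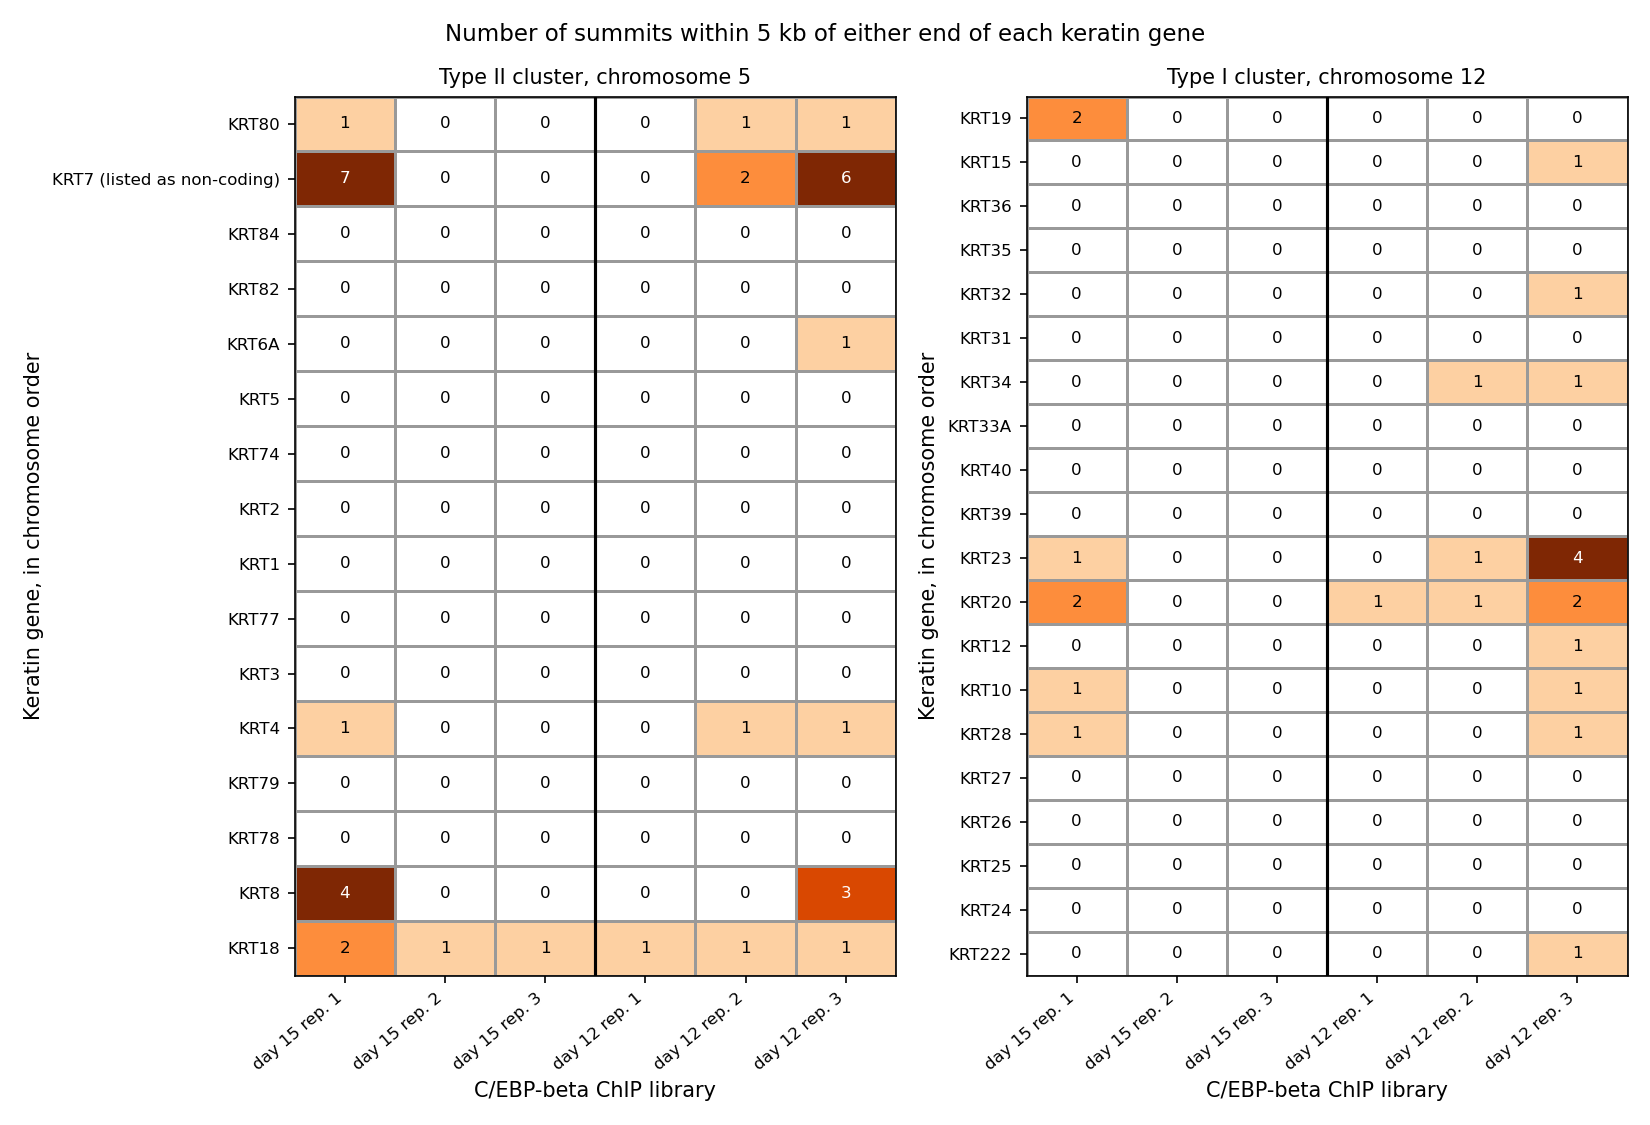
Number of C/EBP-β summits within 5 kb of either end of each keratin gene (rows, in chromosome order, with KRT7 added) in each library (columns, day 15 left of the black line and day 12 right of it). KRT18 has at least 1 summit in all 6 columns, and 20 members have 0 in each of them.

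The path set left the keratin genes nearly empty. Day 15 replicates 2 and 3 had a summit near 8724 (44.6%) and 7343 (37.6%) of all genes, but near 1 keratin gene each, KRT18 in both. Day 12 replicate 1 had one near 3365 genes (17.2%) and near 2 keratin genes, KRT18 and KRT20. In the no-path set, day 15 replicate 1 had a summit near 9 of 35 members (25.7%), against 64.8% of all genes. Day 12 replicates 2 and 3 had one near 6 (17.1%) and 14 (40%), against 38.4% and 54.1% of all genes. The keratin share was thus below the share of all genes in each of the 6 libraries. With lists cut to the 6557 highest-scoring summits each, this no longer held in day 12 replicates 2 and 3. Keratin genes there had 14.3% and 11.4%, against 9.44% and 9.67% of all genes. The no-path set holds 1 library of day 15 and 2 of day 12, so a gene with summits in that set alone can be bound on day 12 and not on day 15. A summit in all 3 no-path libraries was found for 5 members (14.3%), against 35.1% of all genes, and one in any path library for 2 (5.71%), against 48.5%.

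The site at KRT18 was among the strongest in every library. Its 6 summits lay within 59 bp of each other (chromosome 5, 18216036 to 18216094), outside the gene and 1592 to 1650 bp from the end that faces KRT8. The table gives no strand, so whether this end is the start of transcription was not determined. The score stood at percentile 99.4, 96.6 and 97.2 in day 15 replicates 1, 2 and 3, and at 99.2, 99.8 and 99.9 in day 12 replicates 1, 2 and 3. Counted from the top of each list, it was summit 396, 566 and 329 on day 15, and 55, 80 and 63 on day 12. Every day 12 rank was nearer the top than every day 15 rank. The lists differ in length, so this cannot decide whether the site changed between days. Summits lying within 200 bp, whatever their library, were merged into regions, of which 2701 had a summit in all 6 libraries. The KRT18 region had a mean percentile of 98.7, exceeded by 102 of these regions, whose median was 79.3. KRT8 was the nearest other keratin gene, 35.8 kb from the summit of day 15 replicate 3, and TNS2, 89.4 kb away, the nearest protein-coding gene that is no keratin member. Day 15 replicate 1 had a further summit inside KRT18, at percentile 50.3.

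KRT8, which encodes the type II partner of KRT18, had summits in fewer libraries and of lower rank. Day 15 replicates 1, 2 and 3 had 4, 0 and 0 summits within 5 kb, and day 12 replicates 1, 2 and 3 had 0, 0 and 3. The days overlapped, and both libraries with a summit had long lists of the no-path set. The highest percentile was 80.3 in day 15 replicate 1 and 27.3 in day 12 replicate 3, both from 1 region 2.83 kb beyond the end that faces away from KRT18 (18169580 to 18169603). Between the genes lay a region shared by 4 libraries, 18.3 kb from KRT8 (18198578 to 18198593). It had percentiles of 83.6 and 57.5 in day 15 replicates 1 and 2, and of 72.4 and 78.1 in day 12 replicates 2 and 3.

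**Figure D2:**
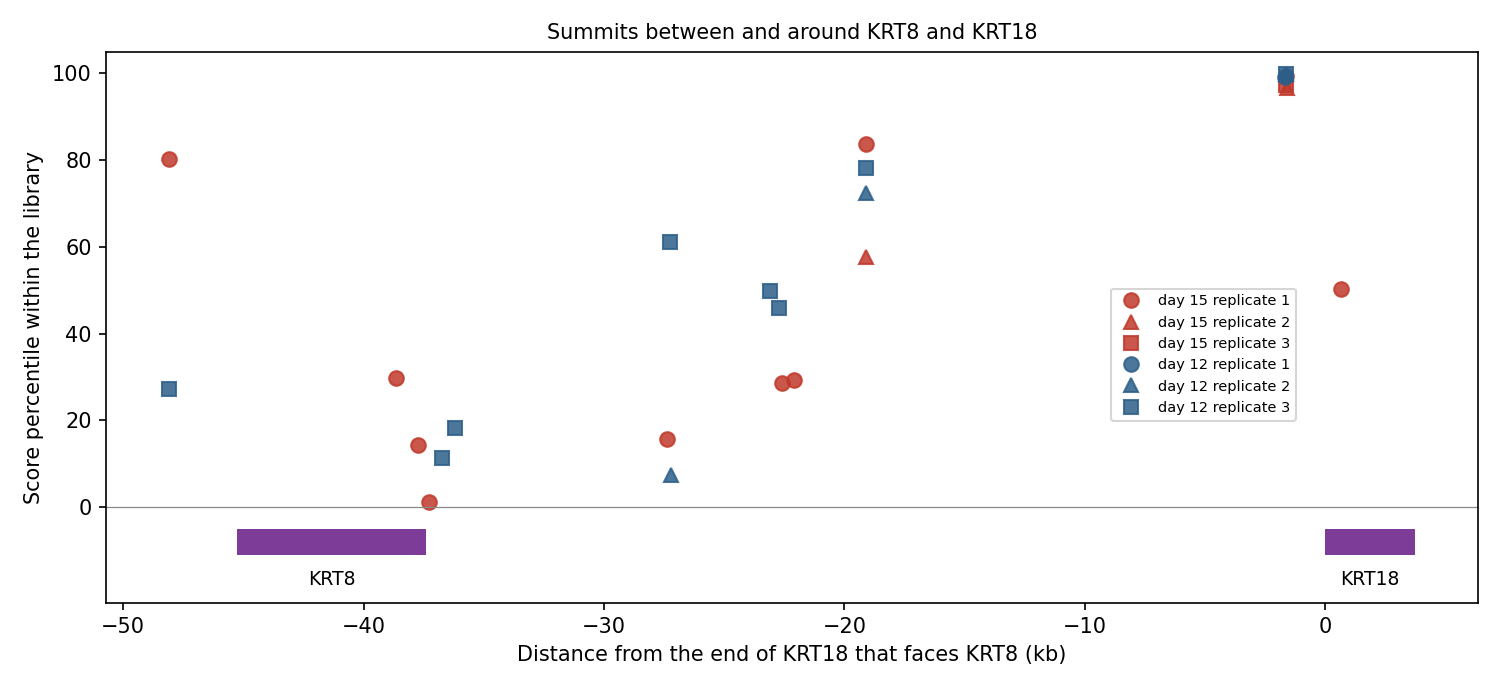
Score percentile within the library (vertical axis) of each summit around KRT8 and KRT18, against the distance in kb from the end of KRT18 that faces KRT8 (horizontal axis). Points are summits, with colour for the day, shape for the replicate and purple bars for the genes. The 6 summits next to KRT18 lie at percentiles 96.6 to 99.9, above every other summit in the window.

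KRT19, a type I keratin of simple epithelia and ducts, had 2 summits in day 15 replicate 1 and 0 in the other 5 libraries. They lay 0.401 kb and 0.450 kb from its ends, at percentiles 54.5 and 46.5. In the other libraries the nearest summit was 139 kb away in both day 15 replicates 2 and 3, and 85, 11.2 and 11.3 kb away in day 12 replicates 1, 2 and 3. KRT7, the type II keratin of simple epithelia listed as non-coding, had 7, 0 and 0 summits in day 15 replicates 1, 2 and 3, and 0, 2 and 6 in day 12 replicates 1, 2 and 3. The libraries with summits were the 3 of the no-path set, and the days overlapped. Its highest-ranked region lay inside the gene, 4.90 kb from an end (17558081 to 17558099), at percentile 93.1 in day 15 replicate 1, and 73.5 and 87.7 in day 12 replicates 2 and 3.

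The 3 simple epithelial members had a summit more often than the 32 other keratins in each library, mainly through KRT18. Of KRT8, KRT18 and KRT19, 3, 1 and 1 had one in day 15 replicates 1, 2 and 3, and 1, 1 and 2 in day 12 replicates 1, 2 and 3. The simple share on day 15 was 100%, 33.3% and 33.3%, against 64.8%, 44.6% and 37.6% of all genes. On day 12 it was 33.3%, 33.3% and 66.7%, against 17.2%, 38.4% and 54.1%. In day 15 replicates 2 and 3 and day 12 replicate 2 it was thus below the share of all genes. Of the other keratins, 6, 0 and 0 of 32 had one on day 15, and 1, 5 and 12 on day 12. The difference in share was 81.3, 33.3 and 33.3 percentage points on day 15, and 30.2, 17.7 and 29.2 on day 12, with a mean of 37.5. In the 4 libraries where KRT18 is the one simple member with a summit, the whole simple share rests on that gene.

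**Figure D3:**
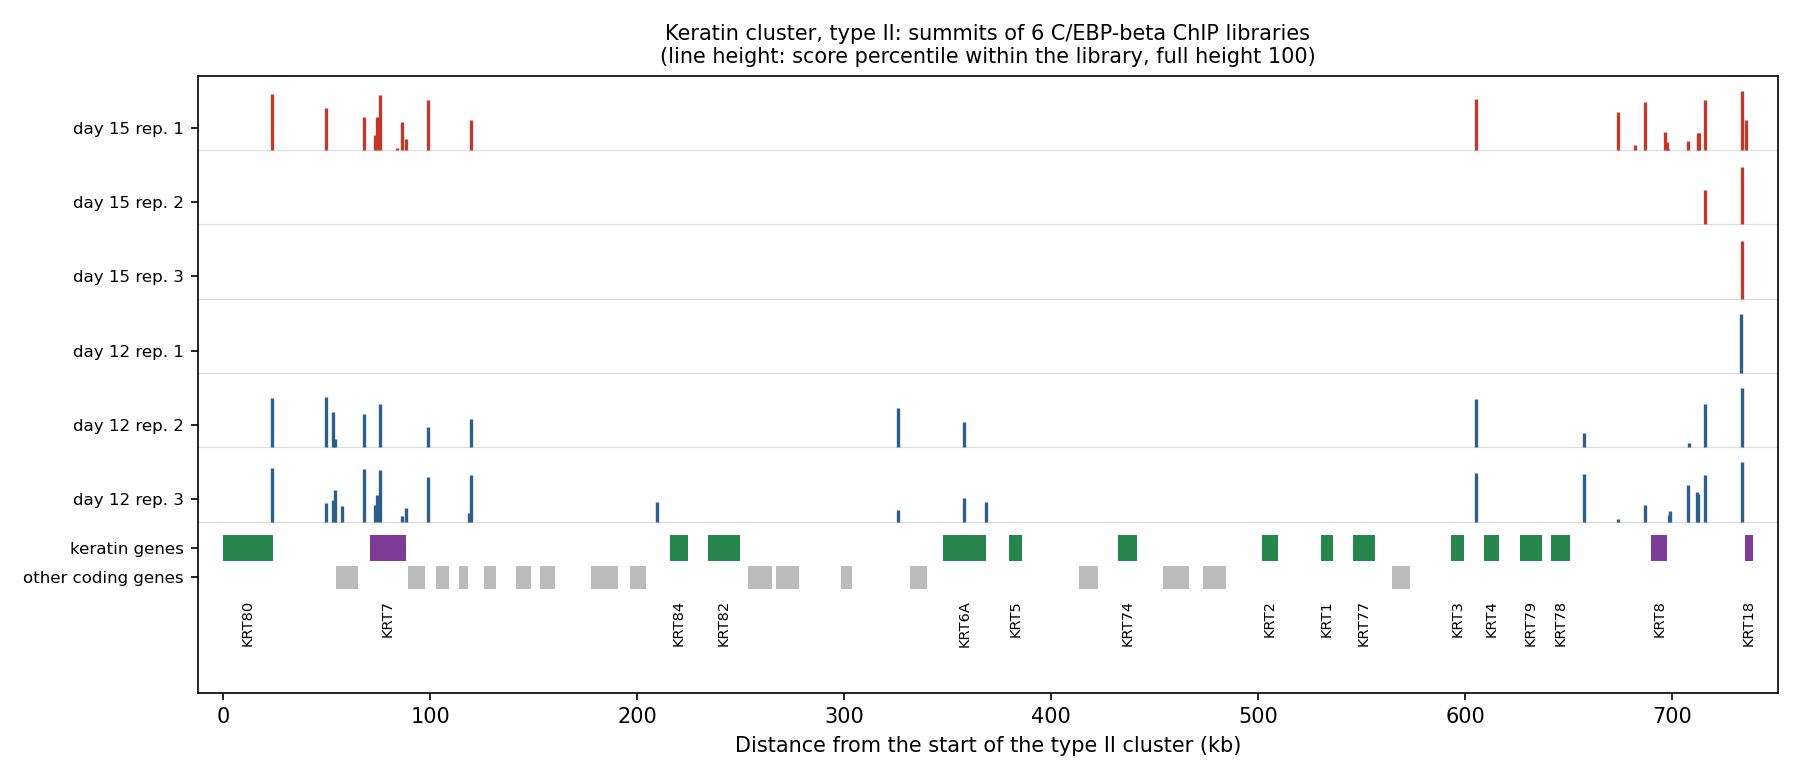
Summits in the type II cluster, by library (rows), against the distance in kb from the start of the cluster. Line height is the score percentile within the library, red for day 15 and blue for day 12, over purple bars for simple epithelial keratins, green for other keratins and grey for other coding genes. Many summits lie around KRT7 and from KRT8 to KRT18, others lie near KRT80, KRT84, KRT6A, KRT4 and KRT78, and a stretch of 236 kb from KRT5 to KRT3 has none.

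Among the 32 other keratins, 0 were bound on day 15 and 5 (15.6%) on day 12, against 46.3% and 38.1% of all genes. Each of the 5 had a summit in day 12 replicates 2 and 3. KRT20, a type I keratin of intestinal and urothelial epithelium, was the most recurrent, with 2, 0 and 0 summits in day 15 replicates 1, 2 and 3, and 1, 1 and 2 in day 12 replicates 1, 2 and 3. Its main region lay inside the gene, 1.95 kb from an end (chromosome 12, 21591592 to 21591670). The percentile there was 76.7 in day 15 replicate 1, and 70.7, 94.0 and 95 in day 12 replicates 1, 2 and 3. KRT23, a further type I keratin, had 1, 0 and 0 summits on day 15, and 0, 1 and 4 on day 12. Its highest-ranked region, 2.67 kb outside the gene (21549719 to 21549746), had summits in day 12 replicates 2 and 3 at percentiles 86.5 and 93.1. KRT80, a type II keratin of many differentiating epithelia, had 1 summit in each no-path library, inside the gene and 0.490 kb from an end (chromosome 5, 17505969 to 17505975). The percentile was 94.2 in day 15 replicate 1, and 82.2 and 89.8 in day 12 replicates 2 and 3.

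KRT4, the type II keratin of mucosal stratified epithelia such as the oesophagus, had 1 summit in each of the same 3 libraries. Its region lay 4.20 kb outside the gene (18087531 to 18087553), at percentile 86.3 in day 15 replicate 1, and 81.8 and 81.1 in day 12 replicates 2 and 3. KRT34, a hair keratin gene, had 0 summits in each day 15 library, and 0, 1 and 1 in day 12 replicates 1, 2 and 3. Its region lay 1.43 kb from an end (chromosome 12, 21220679 to 21220693), at percentiles 46.8 and 67.7. With the 6557 highest-scoring summits of each list, 1 of 35 members was bound on day 15, KRT18. On day 12, 4 of 35 were bound, KRT18, KRT20, KRT23 and KRT80. The bound share of all genes was then 20.3% on day 15 and 9.68% on day 12, which does not measure the days alone. By library, 10.5%, 24.4% and 24.3% of all genes had a summit in day 15 replicates 1, 2 and 3. In day 12 replicates 1, 2 and 3 it was 17.2%, 9.44% and 9.67%. Every path library was thus above every no-path library, and within each set day 15 was above day 12.

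By class, 0 of 3 other simple or transitional keratins (KRT20, KRT23 and KRT80) were bound on day 15 and 3 of 3 on day 12, against 46.3% and 38.1% of all genes. KRT23 and KRT80, like KRT4, had a summit in each no-path library and in no path library. For them this order of the days follows from the sets and cannot be read as a contrast between days. For KRT23 the sites differed within the no-path set. Its highest-ranked region had no summit in day 15 replicate 1, whose 1 summit lay in a region inside the gene (21527983 to 21528076) shared with day 12 replicate 3. With equal lists, KRT23 had a summit in day 12 replicates 2 and 3 alone. Whether this differs between days was not tested. Of 10 suprabasal and mucosal keratins, 1 was bound on day 12, KRT4, and 7 had no summit in any library, among them KRT1 and KRT2 of the upper epidermis. KRT10, the type I partner of KRT1, had 1 summit in day 15 replicate 1 and 1 in day 12 replicate 3, as did KRT28 of the inner root sheath. Of 10 hair keratins, 1 was bound on day 12, KRT34, and 8 had no summit. Of 5 inner root sheath keratins, 4 had no summit. Of 3 basal and wound keratins, KRT5, the type II keratin of basal cells, had no summit, and KRT15 and KRT6A had 1 each in day 12 replicate 3. KRT12, KRT32 and KRT222 likewise had 1 summit in that library and none elsewhere.

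Summits in the clusters were set against the share of the genome that each covers. In the no-path set the clusters held at least 2.71 of every 10000 summits, and in the path set at most 3.05. The type II cluster makes up 3.04 per 10000 bases of the chromosomes but 16.4 per 10000 protein-coding genes, and the type I cluster 2.73 and 22.5. The type II cluster held 24, 2 and 1 summits in day 15 replicates 1, 2 and 3, and 1, 15 and 29 in day 12 replicates 1, 2 and 3. Per 10000 summits of the library this was 3.42, 1.21 and 0.836 on day 15, and 1.53, 4.51 and 5.02 on day 12. The 95% exact binomial intervals were 2.19 to 5.09, 0.147 to 4.37 and 0.0212 to 4.66 on day 15, and 0.0386 to 8.49, 2.52 to 7.43 and 3.36 to 7.21 on day 12, and cover counting error only. In the cluster the days overlapped. Every day 15 library was above every day 12 library in 6.8% of 3281 adjoining windows of that length, and the reverse held in 8.81%. The KRT18 site was the one summit in the cluster in day 15 replicate 3 and day 12 replicate 1.

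The type I cluster held 19, 1 and 0 summits in day 15 replicates 1, 2 and 3, and 2, 15 and 29 in day 12 replicates 1, 2 and 3. Per 10000 summits this was 2.71, 0.605 and 0 on day 15, where the count of 0 allows up to 2.51 by a limit of 3 counts and up to 3.08 by the exact binomial interval, and 3.05, 4.51 and 5.02 on day 12. Every day 12 library was above every day 15 library. The same held for 9.02% of 3658 adjoining windows of that length along the chromosomes, and the reverse for 6.81%. The value of day 12 replicate 1 rests on 2 summits (exact binomial interval 0.369 to 11), so its order against day 15 replicate 1 (1.63 to 4.23), and against the replicates with 1 and 0 summits, is within counting error.

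Means were lower on day 15 than on day 12 in both clusters, with neither difference past a threshold of 0.05, which 3 against 3 libraries cannot reach. The type I cluster averaged 1.10 ± 1.42 summits per 10000 on day 15 and 4.19 ± 1.02 on day 12 (SD, n = 3 each), a difference of -3.09. The two-sided exact permutation test gave p = 0.1, the smallest that 3 against 3 libraries allow, and 0.2 after Benjamini-Hochberg adjustment over the 2 clusters. The type II cluster averaged 1.82 ± 1.4 on day 15 and 3.68 ± 1.89 on day 12 (SD, n = 3 each), a difference of -1.86 (exact permutation p = 0.2, adjusted 0.2). With 100 kb added on either side, the type II difference turned to 2.0 (exact permutation p = 0.5). Within the path and no-path sets, the differences were -2.75 and -2.06 for type I and -0.50 and -1.34 for type II. Their averages were -2.40 and -0.92 (exact permutation within sets, p = 0.111 for both, the smallest that 9 arrangements allow). The no-path set averaged 4.08 and the path set 1.22 in the type I cluster, and 4.32 and 1.19 in the type II cluster.

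**Figure D4:**
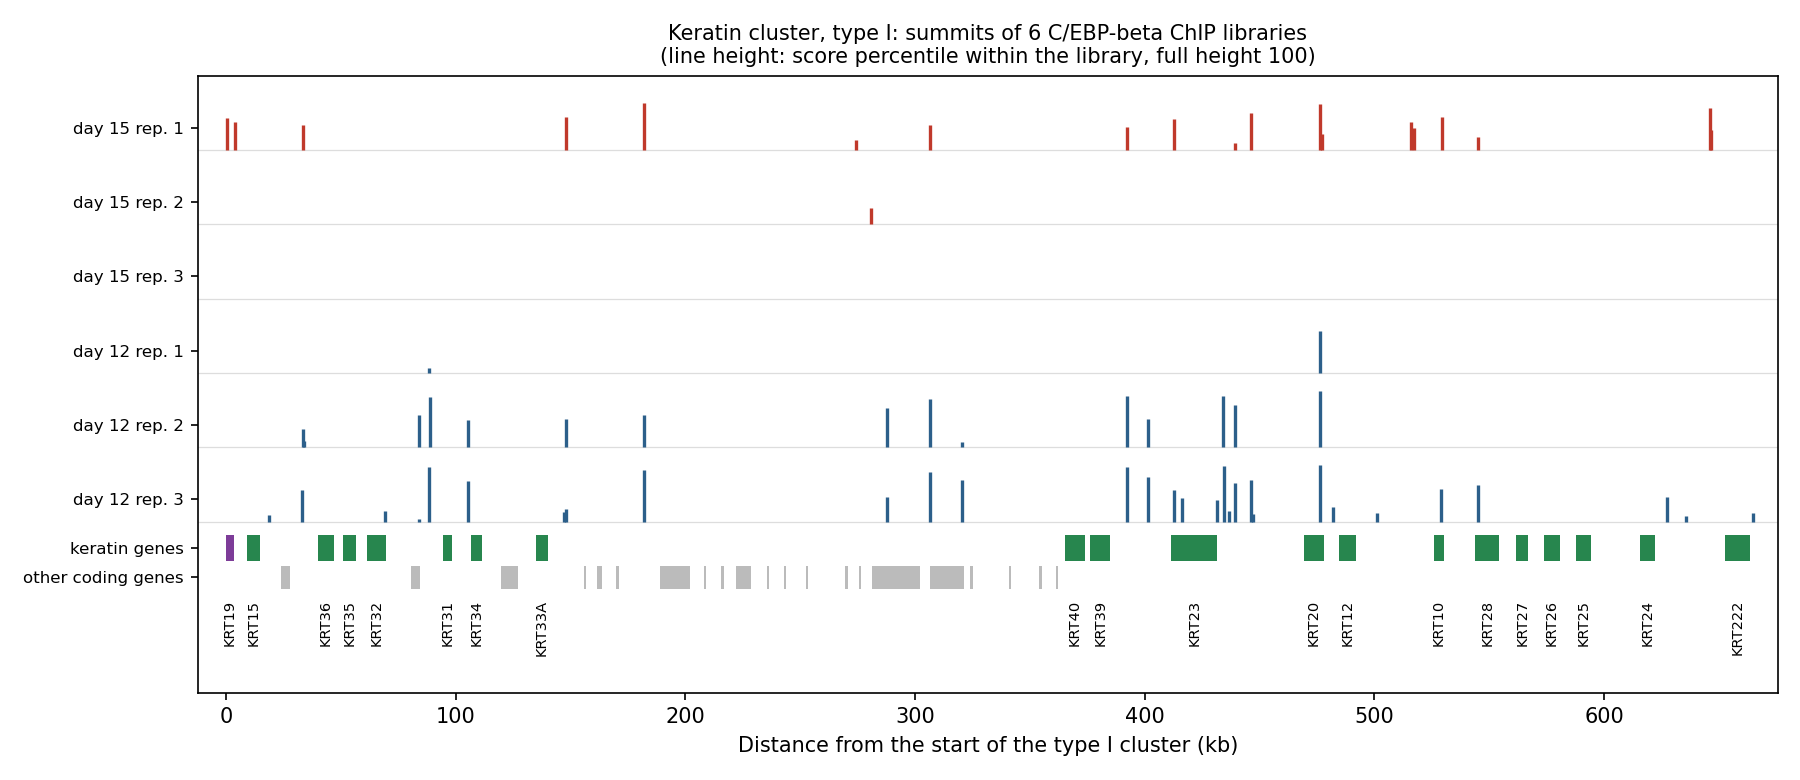
Summits in the type I cluster, by library (rows), against the distance in kb from the start of the cluster. Line height is the score percentile within the library, red for day 15 and blue for day 12, over a purple bar for KRT19, green bars for other keratins and grey bars for other coding genes. Day 15 replicates 2 and 3 have 1 and 0 summits, and the region in KRT20 is the one shared by 4 libraries.

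Regions of the clusters were counted by the number of libraries behind them. The type II cluster held 38 regions, of which 18 (47.4%) came from 1 library, 8 from 3 and 2 (5.26%) from at least 4, those at KRT18 and between KRT8 and KRT18. The type I cluster held 39 regions, of which 21 (53.8%) came from 1 library, 7 from 3 and 1 (2.56%) from at least 4, in KRT20. Over all chromosomes, 50.5% of 99058 regions came from 1 library, 16402 from 3 and 11.6% from at least 4. All 6 libraries shared 1 region of the type II cluster (2.63%) and 0 of the type I cluster, against 2.73% of all regions. The longest stretch of the type II cluster without a summit in any library was 236 kb (from 17851256 to 18087531). It holds 6 keratin genes, KRT5, KRT74, KRT2, KRT1, KRT77 and KRT3, among 10 protein-coding genes. Stretches of that length or more held 6.18% of all protein-coding genes.

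By day, keratin genes and all genes stood in opposite order, within the spread of the libraries. A summit lay near 10.5% ± 13.2 of the keratin genes on day 15 and 21.0% ± 17.5 on day 12 (SD, n = 3 each), a difference of -10.5 percentage points. Over all genes the shares were 49.0% ± 14.1 on day 15 and 36.6% ± 18.5 on day 12. The keratin values of the days overlapped. The difference was -0.95 points without day 12 replicate 3, -6.67 without day 15 replicate 2 or 3, and -18.1 without day 15 replicate 1 or without day 12 replicate 1. It averaged -2.86 within the path and no-path sets. A summit in every day 15 library with none on day 12 was found for 0 members, against 2.83% of all genes, and the reverse for 0 members, against 0.0307%. A lead of at least 2 libraries for day 15 was found for 0 members, against 11.8% of all genes, and for day 12 for 2 members (5.71%), KRT20 and KRT34, against 1.58%.

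The other genes inside and just outside the clusters were counted in the same way, with no test between them. Of the 41 other protein-coding genes inside, 1 was bound on day 15 (2.44%) and 9 on day 12 (22.0%). The shares were 2.86% and 17.1% of keratin members, and 46.3% and 38.1% of all genes. Of the 41, 30 had no summit in any library, against 29.5% of all genes. Of 11 protein-coding genes within 100 kb of the clusters, 6 were bound on day 15 (54.5%) and 4 on day 12 (36.4%), and 3 had no summit. TNS2 beyond KRT18, which encodes a focal adhesion protein, and LOC110260567 beyond KRT80 each had one in 5 libraries, missing in 1 of day 12.

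Genes of proteins that anchor keratin filaments were counted beside them. On day 15, 5 of 18 desmosome, plakin and related genes (27.8%) were bound, against 46.3% of all genes, and likewise 5 on day 12, against 38.1%. JUP, which encodes the desmosomal plaque protein plakoglobin, had a summit in all 6 libraries. PPL, PLEC and EPPK1, which encode plakin cytolinkers, were each bound on day 15 and had a summit in day 12 replicate 3 alone on day 12. PLEC and EPPK1, both on chromosome 4, had the same number of summits in each library. Whether the same summits were counted for both genes was not tested. PKP2, DSC1 and DSC2, of desmosomal plakophilins and desmocollins, and DST, of the plakin dystonin, had one in day 15 replicate 1 alone on day 15 and were bound on day 12. DSP, the desmoplakin gene, had one in day 15 replicate 1 alone. On day 15, 6 of 13 other intermediate filament genes (46.2%) were bound, and 5 (38.5%) on day 12, near the shares of all genes. VIM, the vimentin gene of stromal cells, had a summit in every library but day 12 replicate 1. DES, the desmin gene of muscle, had 1, 3 and 1 summits in day 15 replicates 1, 2 and 3, and 0 in each day 12 library. No enrichment test was made for these lists.

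**Figure D5:**
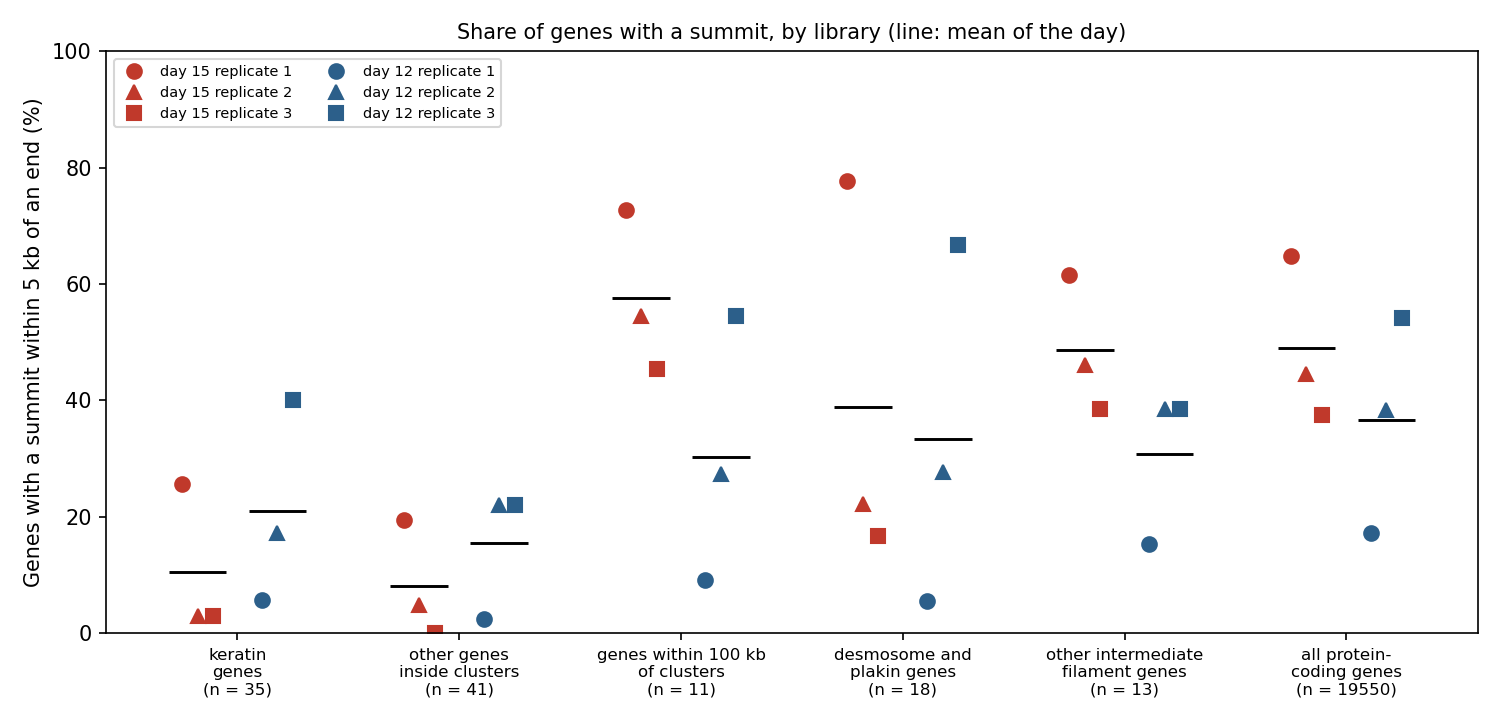
Share of genes with a summit within 5 kb of an end (percent, vertical axis) in each library, for keratin genes and 5 other gene groups, with day 15 in red left of day 12 in blue. Points are libraries, with shape for the replicate, and black lines are means of 3 libraries. Keratin genes averaged 10.5% on day 15 and 21.0% on day 12, and all protein-coding genes 49.0% and 36.6%.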

How the data were processed

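For each of 6 C/EBP-β ChIP libraries the authors deposited 1 list of single-base peak summits. The score they deposited is the −log10 of either a p-value or a q-value, and the sources used here do not say which. The submitters' processing notes name MACS2 2.1.2, Bowtie2 2.3.5.1, SAMtools 1.9 and the build susScr11. How inputs and duplicates were treated and which threshold was set is not given in the sources used here. No list gives read counts, so depth is unknown. Summits outside the 18 autosomes, X and Y were dropped. Genes were placed by RefSeq's Sscrofa11.1 table, which lacks strand and exons, so either gene end was used. Promoter sequences and the planned motif search were not used here, since no genome was at hand.

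A summit was assigned to a gene at up to 5 kb from either end, and 2 of 3 libraries made a gene bound. A summit can count for 2 neighbouring genes. A cluster is a run of at least 5 members under 500 kb apart. Percentiles are ranks of the score within a list. Days were compared with two-sided exact permutation tests over libraries. Member counts were set beside those of all protein-coding genes, with no test. The members, gene lists and tests were chosen with earlier results of these data known. Every gene with a KRT symbol is accounted for, and unnamed genes of the clusters count as other genes. Other keratins are named with values when bound on either day, regions within 5 kb of a named gene or, inside a cluster, with a summit in at least 4 libraries, and neighbours with a summit in at least 5. The window counts were tested on simulated data. The permutations, except those within sets, were tested on small examples with known answers. Python 3.11.15, pandas 2.3.3, numpy 2.4.6 and scipy 1.17.1 were used. Alternatives were score minimums of 5 and 10, equal lists, windows of 1 and 10 kb or the gene body, and wider cluster edges. Others were all 3 libraries, each replicate left out, comparison within the path and no-path sets, a replicate block and any gene type. KRT7 counted as simple was an alternative chosen after seeing the data.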

Additional observations from a re-analysis of the deposited data

How the results depend on the processing

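The number of keratin genes bound on day 15 (1) was 0 at 1 kb and 2 (KRT18 and KRT222) at 10 kb, against 36.7% and 52.7% of all genes, and 1 without any single library. KRT222 had a summit within 5 kb in 0 day 15 libraries. SMARCE1, a gene just beyond KRT222 that is no keratin, had one within 5 kb in 3 day 15 libraries. The day 12 number (6) was 1 (KRT80) with a window of 1 kb and 13 with 10 kb, against 21.2% and 48.9% of all genes, and 2 with all 3 libraries of the day required. Leaving out single libraries gave 2 to 6, with 2 (KRT18 and KRT20) without day 12 replicate 2 or 3, when both remaining libraries had to have a summit. The type II cluster difference of -1.86 reversed to 2.0 with 100 kb added on either side, and was -2.94 to -1.19 with single libraries left out. The type I difference was -3.89 to -2.54 with single libraries left out, -3.19 and -4.82 at scores of at least 5 and 10, -5.59 with equal lists and -4.19 with the wider edges, and the type II difference -1.68, -2.34 and -1.53 at the scores and with equal lists. The keratin share difference was -18.1 to -0.95 with single libraries left out, 0 at 1 kb, -18.1 at 10 kb, -5.71 at both scores and -6.67 with equal lists. The simple minus other difference was 28.8 to 41.5, 28.6 with equal lists, 18.1 at 1 kb, 24.0 at 10 kb and 37.5 with KRT7 counted as simple. With the replicate block the differences were the same, -3.09 (exact sign-flip p = 0.25, the smallest that 3 pairs allow), -1.86 (p = 0.5) and -10.5. Over all genes, presence in same-numbered libraries correlated at -0.26, 0.00068 and -0.20 after the day mean was removed. List lengths and sets differ within these pairs, so the values cannot decide whether the numbers pair the samples. The unknown depth limits every count of 0. In day 12 replicate 1, 3 summits amount to 4.58 per 10000, above the day 12 mean of both clusters.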
